A study of Homo sapiens with 6 samples.

Results

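NAT10 writes N4-acetylcytidine (ac4C) on RNA, so an mRNA held by NAT10 and an mRNA carrying the mark could be the same molecule. This was examined gene by gene in SW480 and DLD-1, both established epithelial cell lines from human colorectal tumours. Each gene was placed by whether it had an ac4C peak and whether its mRNA was higher in NAT10 immunoprecipitates (RIP-seq) than in the Input. Members were protein-coding genes at 1 FPKM or more (fragments scaled to transcript length and library size) in both Input libraries. Peaks had to be listed in both lines or in neither, and log2((RIP FPKM + 1)/(Input FPKM + 1)) had to be above 0 in both lines or below 0 in both. These rules placed 3907 of 10350 such genes in 4 classes, out of 19847 protein-coding genes in the table. The classes were chosen by the measured values themselves, so class sizes and ratios are descriptions.

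The 6 groups were Input, RIP and ac4C immunoprecipitation (acRIP) in each line, with 1 library each. Both lines are labelled wild type and untreated, and every library came from total RNA or from RNA pulled down from it. There were no replicates, so no difference could be tested, and standard errors (SE) cover counting error only. Reads recovered from the FPKM steps gave depths between 13498805 and 29629028 fragments in the RIP and Input libraries. The depth of the acRIP libraries is unknown.

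Ac4C is known best from transfer and ribosomal RNA, where NAT10 acts with adaptor partners. It has also been described in mRNA, in coding sequence and untranslated regions, and has been linked there to RNA stability and translation. NAT10 itself is mainly nucleolar. RIP reads the association of whole transcripts with the protein, whereas acRIP reads fragments that carry the mark.

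The labels of the RIP table were at odds with the data. RIP and Input libraries were set against each other on log2(FPKM + 1) over 16196 detected protein-coding genes, which are not independent of each other. The RIP library carrying the SW480 label had a Pearson r of 0.94 with the DLD-1 Input and of 0.87 with its own Input, and the DLD-1 one had 0.95 with the SW480 Input and 0.86 with its own. KRT20, a keratin of intestinal epithelium, had 29.2 FPKM in the Input labelled SW480 and 0.043 in the Input labelled DLD-1. In RIP the order was turned round, at 0 FPKM under the SW480 label and 23.9 FPKM under the DLD-1 label. Of the 10 epithelial markers, 8 and 7 reached 1 FPKM in the Inputs (EPCAM at 324 and 127 FPKM), and CDX1 stayed under it in all 4 libraries. Of 8 markers of blood, stromal and endothelial cells, 1 reached 1 FPKM in each Input, at 1.16 and 2.02. Line names below are those of the labels. The mean of both lines' log2 ratios is the same under either pairing, so no gene of the 4 classes could turn to the opposite sign in both lines when the Inputs were exchanged. By class, 1506 of 1563, 739 of 785, 712 of 772 and 736 of 787 genes kept their sign in both lines with the Inputs exchanged.

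Some start sites of genes in the classes are printed first, with 1 peak region of a gene that the study followed. Each window holds 30 bases around the RefSeq start (GRCh38.p14), with 10 bases before it. Capitals mark the unbroken run of C and T that begins at the first transcribed base. Such a run after a C is the mark of TOP mRNAs, which encode the translation machinery. The following ribosomal protein genes and TPT1, a growth-linked protein with a TOP mRNA, fall in all 4 classes.
TPT1 (peak in both, RIP above, chr13:45341164-45341193, minus strand): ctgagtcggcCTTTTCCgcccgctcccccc
RPS3 (peak in both, RIP above, chr11:75399508-75399537, plus strand): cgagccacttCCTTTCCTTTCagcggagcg
RPL31 (peak in both, RIP below, chr2:101002279-101002308, plus strand): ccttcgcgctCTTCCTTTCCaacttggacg
RPS13 (peak in neither, RIP above, chr11:17077648-17077677, minus strand): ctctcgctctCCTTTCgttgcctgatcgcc
RPL35 (peak in neither, RIP above, chr9:124861938-124861967, minus strand): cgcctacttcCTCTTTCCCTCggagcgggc
RPL32 (peak in neither, RIP below, chr3:12841546-12841575, minus strand): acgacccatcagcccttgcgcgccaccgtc
A start with C and at least 4 further pyrimidines was found in 67.7% of 62 ribosomal protein genes matched in RefSeq, against 5.83% of all 8625 genes matched. The share of ribosomal protein genes matched, 79.5%, is under 80%, so their value covers a part of the list. By class the share was 8.09% and 5.76% for genes with a peak and RIP above or below Input, and 6.53% and 5.17% for genes without one. RPL32 holds no such run at the RefSeq start, and RPL13 (peak in both, RIP below), not printed, holds a run of only 2 bases.

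The peak lists also count a 12-base pattern of 4 Cs, each 3 bases after the last. KIF23, the kinesin of the midbody that the study followed, has such a site in its 3′ UTR peak, which spans chr15:69448128-69448397 on the plus strand of GRCh38 in both lines. The study's RNA probe of that region, 271 bases long, holds 1 site of the pattern, at base 67. Capitals below mark the 3 bases by which the mutant probe differs.
Wild-type probe, bases 56 to 85: uuuuauugugaCuuCucCagcccuggucug
Mutant probe, bases 56 to 85: uuuuauugugaAuuAucAagcccuggucug
The mutant holds no site. KIF23 itself had 34.3 and 19.6 FPKM in the Inputs and 18.8 and 31.2 FPKM in the RIP libraries (SW480, then DLD-1, here and below). Its log2 ratios, with SE, were -0.84 ± 0.04 and 0.64 ± 0.05, with opposite signs, so it entered no class despite a peak in both lines. With the Inputs exchanged between lines the ratios were -0.06 and -0.13, both close to 0, and no SE was taken for this pairing. Both are below 0, so KIF23 would then fall in the class with a peak and RIP below. The study's evidence that NAT10 binds KIF23 mRNA rests on other measures, among them RIP with qPCR against IgG, gel shifts and 3′ UTR reporters. RIP over Input by gene is not the same measure.

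Genes with an ac4C peak were more often above Input in RIP than genes without one. An ac4C peak in both lines was held by 4168 genes (40.3%) and a peak in neither by 3345 (32.3%). RIP was above Input in both lines in 31.6% of all 10350 genes and below in 20.8%. Among genes with a peak in both lines, 1563 were above (37.5%) and 785 below (18.8%). Among genes with a peak in neither, 772 were above (23.1%) and 787 below (23.5%). Genes with a peak in 1 line lay between, at 33.0% above and 20.4% below. The classes held 15.1%, 7.58%, 7.46% and 7.60% of the genes tested in that order. Binding is used here and below as shorthand for RIP above Input in both lines. RIP below Input does not show that NAT10 was absent, and a missing peak does not show that the mark was absent. In this sense binding and mark agreed, both present or both absent, in 2350 genes (22.7%) and disagreed in 1557 (15.0%). The other 6443 genes had opposite RIP signs or a peak in 1 line. The count of agreement also depends on the shares of genes with a peak and with RIP above, and no expected count was worked out. Centred on the median of all genes in each line (0.18 and 0.07), 1322 genes with a peak were above and 1016 below, and 611 and 979 without a peak.

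**Figure D1:**
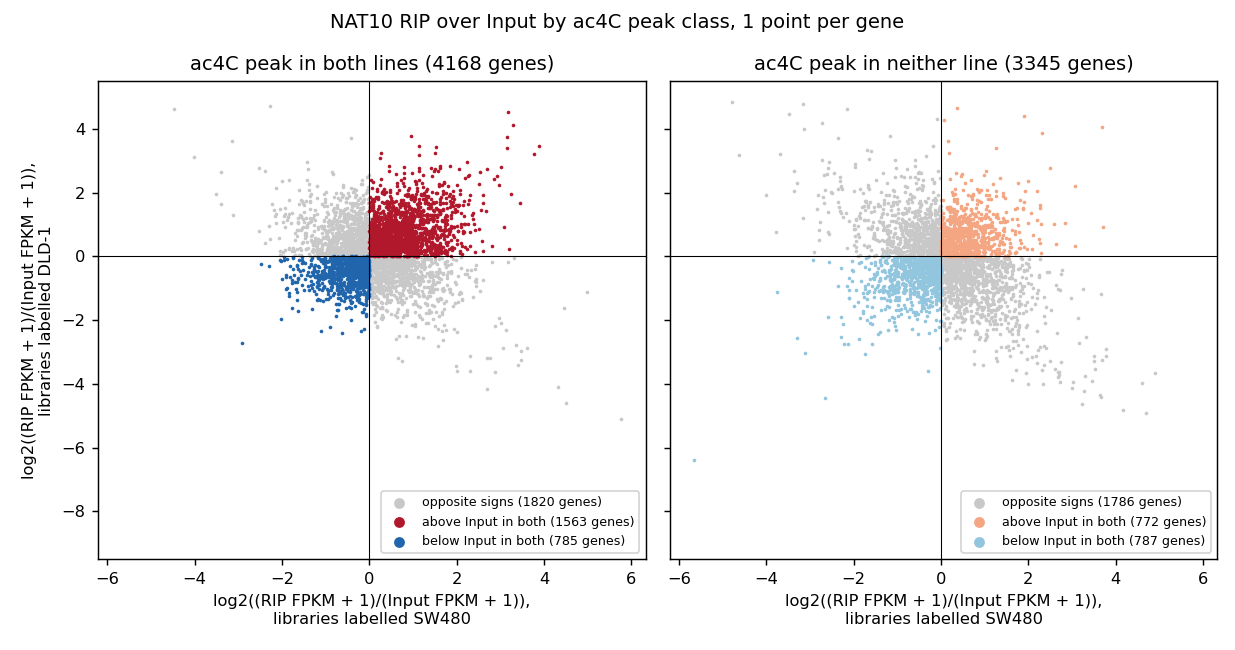
Each point is 1 gene, with its log2((RIP FPKM + 1)/(Input FPKM + 1)) in the libraries labelled SW480 on the horizontal axis and DLD-1 on the vertical axis. Genes with a peak in both lines (left) fill the upper right quadrant (1563 genes) more than the lower left (785), whereas genes with no peak (right) divide almost evenly between them (772 and 787), and grey points with opposite signs run along the falling diagonal.

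The median of the mean log2 ratio was 0.18 for genes with a peak in both lines (quartiles -0.25 and 0.64), 0.13 with a peak in 1 line and -0.01 with none (-0.41 and 0.39), beside 0.10 over all genes. Among members the medians were 0.76 (peak, above), -0.52 (peak, below), 0.63 (no peak, above) and -0.60 (no peak, below). Both lines' ratios lay beyond 2 SE of counting in 84.6%, 76.1%, 72.3% and 69.1% of members, in the same order. They did so in 1388 of the 1820 genes with a peak and opposite signs too, so opposite signs were mostly larger than counting error. With the Inputs exchanged between lines, RIP was above in both lines in 46.6% of all genes and below in 34.5%. The order of the peak groups was kept there, with 52.8% of genes with a peak above and 37.8% of genes without. Within the libraries labelled SW480 alone, with peaks of that line only, the shares were close, at 59.9% and 56.0%, and within DLD-1 they were 58.9% and 44.9%.

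The sign threshold cut through a dense part of the distribution. TEX30 was just inside the class with a peak and RIP above, at 1.86 and 0.0004, and CUL3, at -5.3e-05 and 0.23, just outside. HNRNPH1 was just inside the class below, at -0.59 and -0.0006, and SSX2IP, at -0.16 and 0.0012, just outside. Without a peak, SUMF1 (0.92 and 5e-05) and IQSEC2 (-0.0021 and -2.02) were just inside, and B3GLCT (1.26 and -0.00061) and SMAD5 (0.00032 and -0.13) just outside. At the Input threshold, the lower Input value was 1.0006 FPKM for ZP3, just inside, and 0.9986 for KRTCAP2, just outside.

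Length and abundance moved with the classes. Genes with a peak and RIP above had a median exonic length of 2844 bases, against 3978 with a peak and RIP below, and 3572 and 3678 without a peak. Their median Input level was 13.6 FPKM against 22.1, and 4.56 and 5.94 without a peak. The part of abundance and length in the class sizes was not tested. Within quartiles of length, RIP was above Input in 48.5%, 35.4%, 35.4% and 27.1% of genes with a peak, from shortest to longest, and in 23.1%, 24.97%, 23.9% and 20.6% of genes without. Within quartiles of Input the shares were 50%, 41.3%, 41.6% and 29.6% with a peak, and 27.7%, 22.04%, 17.1% and 16.7% without. Crossing both gave 16 cells of at least 64 genes per group, and the median ratio was higher with a peak in 15, by up to 0.90. In the cell of the longest and most abundant genes the medians were -0.27 with a peak and -0.26 without.

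**Figure D2:**
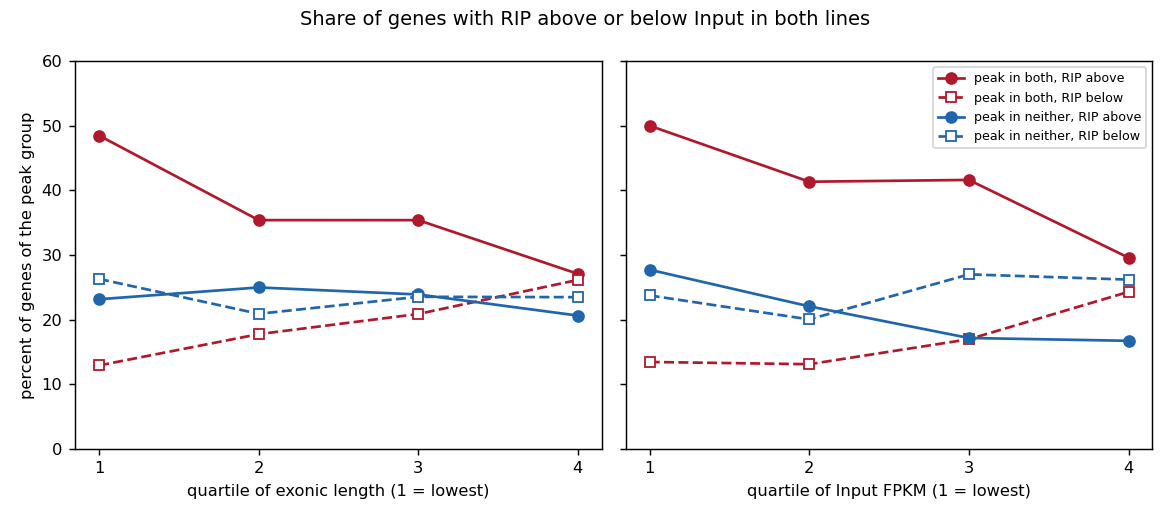
Percent of genes with RIP above Input in both lines (filled circles) or below (open squares), by quartile of exonic length (left) and of Input FPKM (right), for genes with an ac4C peak in both lines (red) or in neither (blue). The filled red points lie above the filled blue points in every quartile, by most among the shortest genes (48.5% against 23.1%) and by least among the longest (27.1% against 20.6%).

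In the class where binding and mark were both present, transcripts had the shortest median length of the 4 classes. The 6 genes with the largest smaller-of-both-lines ratio, among those at 5 FPKM or more in both Inputs, were TUBA1B, TPT1, MZT2B, USMG5, SELENOF and SARAF. TUBA1B encodes an alpha-tubulin. It had 18.6 and 13.3 FPKM in the Inputs and 176 and 327 FPKM in the RIP libraries, or log2 ratios of 3.18 ± 0.05 and 4.52 ± 0.06. TPT1 had 70.4 and 62.7 FPKM in the Inputs and 629.8 and 666 FPKM in the RIP libraries, and its RIP values were again far above both Inputs. MZT2B, a protein of the gamma-tubulin ring complex, had 10.6 and 10.6 FPKM in the Inputs and 74.7 and 76.4 FPKM in the RIP libraries. USMG5, a small subunit of the mitochondrial ATP synthase, had ratios of 2.51 and 2.28. SELENOF, a selenoprotein of the endoplasmic reticulum (ER), had 2.25 and 2.96, and SARAF, a regulator of store-operated calcium entry, 2.19 and 2.46. These 6 genes were chosen for the size of their ratios, so their distance from Input is a description and no further result.

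The size of these ratios depended on which Input was used. A second Input table was deposited with the acRIP data, and the labels hold only 1 Input sample per line, to which the columns of both tables match. The values differed all the same, with TUBA1B at 85.3 and 54 FPKM there, and whether they come from separate libraries is not given in the sources used here. Over its values, scaled to the same median, TUBA1B had ratios of 0.49 and 1.97 and TPT1 1.30 and 1.40, still above 0 but far smaller, whereas SARAF had 1.91 and 1.83. TUBA1B has near-identical paralogs and pseudogenes, so its reads could be split by the counting. Over these Inputs 74.6% of the class stayed above in both lines and 5.37% turned to below in both. The shares that stayed were 57.7% (peak, below), 65.8% (no peak, above) and 60.9% (no peak, below), and 13.8%, 7.25% and 12.3% turned to the opposite. Of the other named genes, PSMB10, PSMD9, RPN1, TRA2B and LRP6 turned in both lines, and RPL31, RPL32, H2AFZ, HIST2H2AC, TMEM139, RNF43, NAT10, BCL2L1, GSK3B, MYBL2, DDX23 and DNASE1L1 in 1 line, beside genes at the sign threshold.

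**Figure D3:**
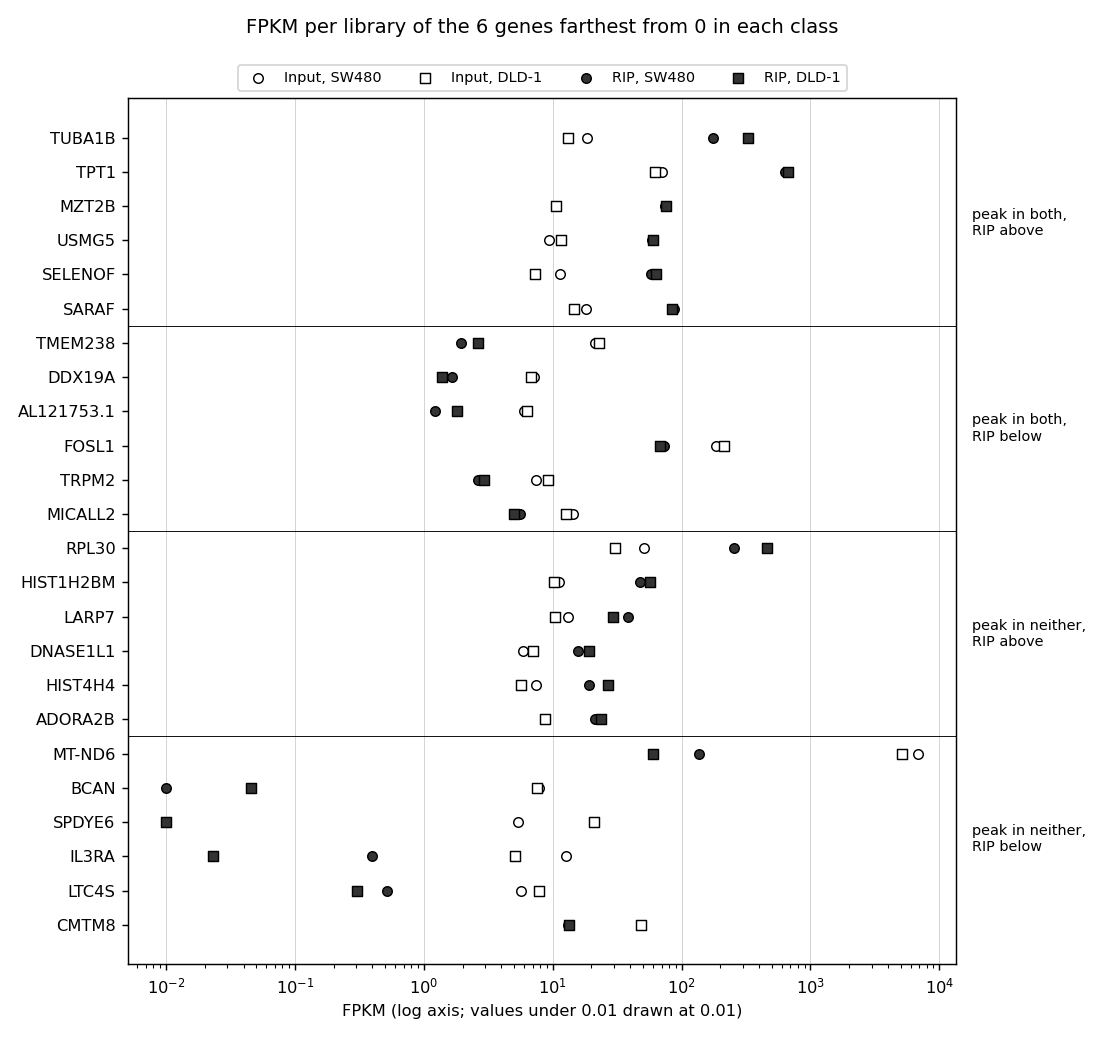
FPKM on a log axis of the 6 genes farthest from 0 in each class, with Input libraries as open symbols and RIP libraries as filled symbols (circles SW480, squares DLD-1), and values under 0.01 drawn at 0.01. Filled symbols lie to the right of open ones in both classes above Input, as for TPT1, and to the left in both classes below, where MT-ND6, SPDYE6, BCAN and IL3RA are separated most.

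Among 34 function lists, those for respiration, protein turnover and secretion had the largest shares in this class, against 15.1% of all genes. For the respiratory chain encoded in the nucleus, 35 of 73 members were in it (47.9%). A further 4 had a peak with RIP below, 7 had RIP above without a peak and 2 neither. The respiratory chain, mitochondrial import and the proteasome had a peak in both lines in 79.5%, 77.6% and 76.7% of members (all genes 40.3%). Of their members with a peak, 60.3%, 60.5% and 60.6% were above Input in both lines, against 37.5% of all genes with a peak. For ER translocation and N-glycosylation, 39 of 52 members had a peak in both lines, and 61.5% of these were above. So these lists had more genes with a peak, and more of those above. ATP5B, the catalytic ATP synthase subunit, had 185 and 208 FPKM in the Inputs and 388 and 352 FPKM in the RIP libraries. COX6B1, of cytochrome c oxidase, had ratios of 0.63 and 0.72. NDUFS5 of complex I stood against the list with 82.4 and 78.7 FPKM in the Inputs and 52.2 and 56.9 FPKM in the RIP libraries, although its peak folds over Input, 442 and 369, were among the highest of the class below. The list's median mean ratio was 0.52, beside 0.10 for all genes. Its median exonic length was 1439 bases, against 3567 for all genes.

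Mitochondrial import and dynamics followed, with 23 of 49 members (46.9%) in the class with both, and the proteasome, with 20 of 43 (46.5%). PSMB3, a core particle subunit, had 131 and 96.4 FPKM in the Inputs and 139.8 and 175 FPKM in the RIP libraries, with DLD-1 well above its Input and SW480 hardly. PSMD4, the ubiquitin receptor of the cap, had ratios of 0.05 and 0.32. Binding and mark disagreed in 2 proteasome genes, PSMB10 at -0.36 and -0.96 and PSMD9 at -0.45 and -0.08. Over the second Input table both turned to above, at 0.10 and 0.10 and 0.08 and 0.83, and no proteasome gene had a peak with RIP below. PSMB10 and PSMB9 belong to the immunoproteasome, the form induced by interferon. PSMB9 had no peak and was below Input, at -0.21 and -0.50. The list's median ratio was 0.51, and 0.64 over the second Input table.

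ER translocation and N-glycosylation had 24 of 52 members in the class (46.2%) and a median ratio of 0.51. P4HB, protein disulfide isomerase, had 138 and 154 FPKM in the Inputs and 192 and 209 FPKM in the RIP libraries. SRP14, of the signal recognition particle, had ratios of 0.46 and 0.55. The oligosaccharyltransferase subunits RPN2 (-0.22 and -0.38) and RPN1 (-0.36 and -0.22) had peaks with RIP below Input, but RPN1 turned to 0.15 and 0.20 over the second Input table. SEC61B, of the translocon, had no peak and ratios of 0.93 and 0.75. The COPI and COPII coats had 16 of 39 members in the class (41.0%).

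Mitochondrial ribosomal proteins had 29 of 74 members with both peak and binding (39.2%) and a median ratio of 0.44. MRPL3 had 29.6 and 27.7 FPKM in the Inputs and 74.7 and 97.7 FPKM in the RIP libraries, clearly above in both lines. MRPS18B, at -0.0021 and -0.85, and MRPS26, at -0.35 and -0.44, had peaks with RIP below. Cytosolic ribosomal proteins were listed with a peak in both lines in 67 of 78 genes (85.9%), the largest share of the 34 function lists. Of these 67, 30 were above Input in RIP in both lines and 6 below. Their 2 lines went apart, with median ratios of -0.11 in SW480 and 0.98 in DLD-1. With the Inputs exchanged, 50 of the 67 were above and 14 below. RPL8 had 725 and 549 FPKM in the Inputs and 976 and 1579 FPKM in the RIP libraries. RPS3 had ratios of 0.17 and 0.56. RPL31, with a TOP start like RPS3, had 490.2 and 358 FPKM in the Inputs and 165 and 240.4 FPKM in the RIP libraries, and both RIP values were below both Inputs. RPL13 had ratios of -1.09 and -0.44. RPS13 (0.15 and 0.85) and RPL35 (0.56 and 1.51) were above Input without a peak in either line, and RPL32, at -1.04 and -0.41, was the only ribosomal protein gene with no peak and RIP below. Ribosomal protein genes have many processed pseudogenes that share reads, so their values are uncertain.

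**Figure D4:**
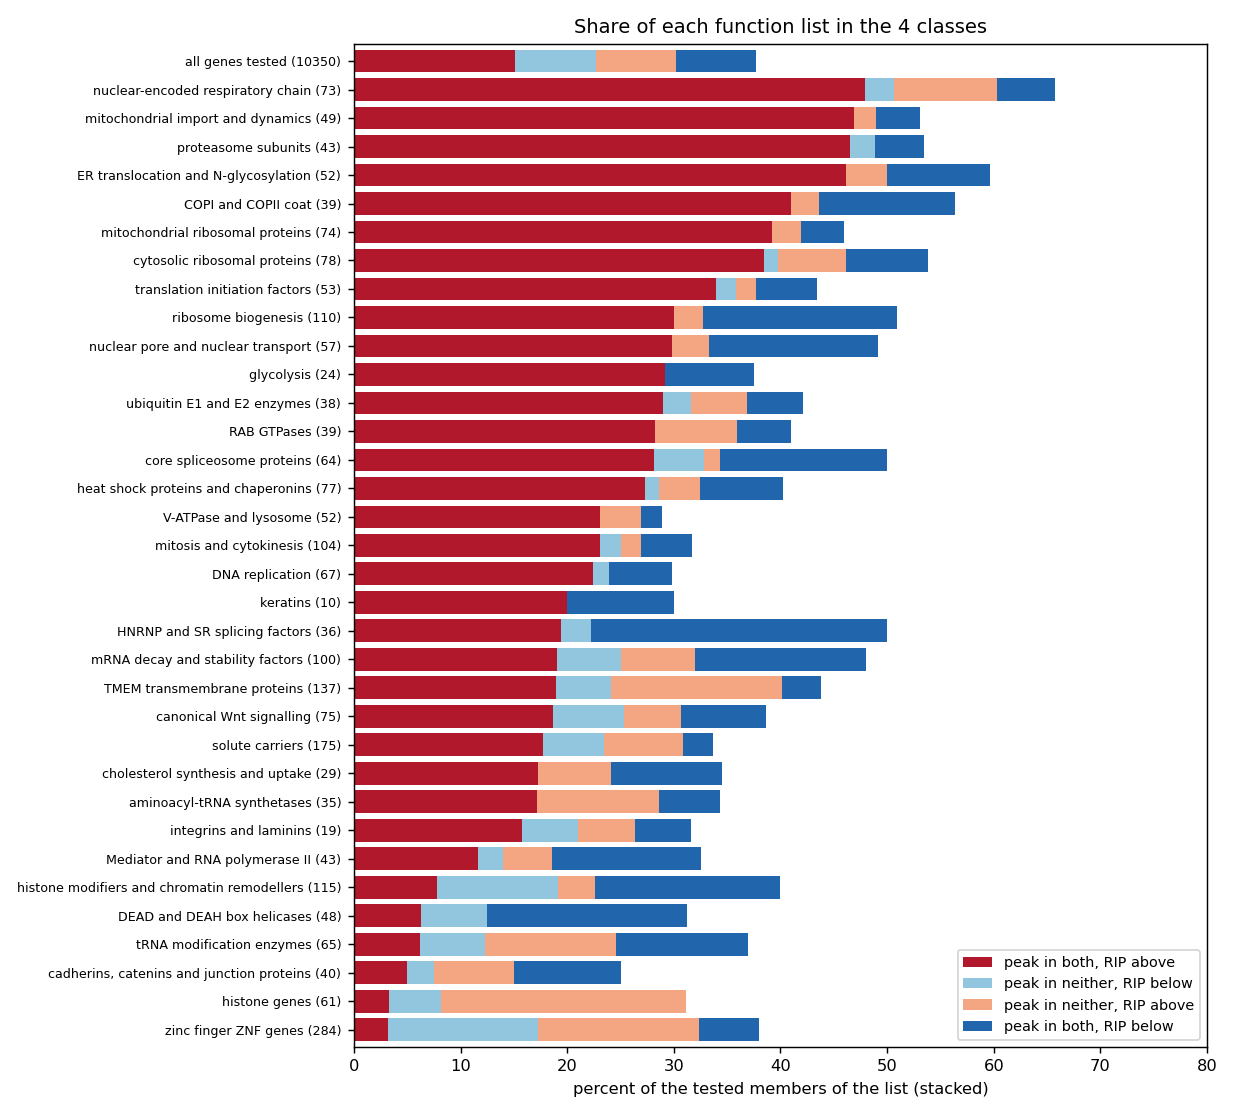
Percent of the tested members of each function list (number in brackets) that fall in each of the 4 classes, stacked, with all genes tested at the top. Dark red (peak and binding) takes 47.9% of the respiratory chain and 3.17% of zinc finger genes, against 15.1% of all genes, and dark blue (peak, RIP below) takes 27.8% of HNRNP and SR splicing factors against 7.58%.

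In the class with a peak but RIP below Input, HNRNP and SR splicing factors, DEAD and DEAH box helicases, ribosome biogenesis factors (20 of 110, or 18.2%) and chromatin regulators had the largest shares of the 34 lists. In the same order, 72.2%, 62.5%, 78.2% and 41.7% of their members had a peak in both lines, against 40.3% of all genes. Of those members, 38.5%, 30%, 23.3% and 41.7% were below Input in both lines, against 18.8% of all genes with a peak. For ribosome biogenesis 38.4% of them were above, against 37.5% of all genes with a peak. Zinc finger ZNF genes, at 5.63%, were under the 7.58% of all genes, and ribosome biogenesis had more members, 33, with peak and binding. The 6 genes farthest below 0 at 5 FPKM or more were TMEM238, DDX19A, AL121753.1, FOSL1, TRPM2 and MICALL2. TMEM238, a small membrane protein, had 21.3 and 22.7 FPKM in the Inputs and 1.96 and 2.62 FPKM in the RIP libraries, with ratios of -2.91 ± 0.15 and -2.71 ± 0.15. DDX19A, an RNA helicase of mRNA export, had ratios of -1.63 and -1.70. FOSL1, the AP-1 subunit FRA1, had 184 and 214 FPKM in the Inputs and 73.6 and 67.9 FPKM in the RIP libraries, and its 3′ UTR peaks in both lines hold 5 and 4 sites of the 4-C pattern. TRPM2, a cation channel, had ratios of -1.21 and -1.38, and MICALL2, a partner of RAB GTPases at junctions, -1.22 and -1.19. AL121753.1 had ratios of -1.65 and -1.38. Over the second Input table MICALL2 moved to -0.40 and -0.34, and the other 5 stayed at -0.98 or lower in both lines.

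HNRNP and SR splicing factors had 10 of 36 members in this class (27.8% against 7.58% of all genes) and 7 with peak and binding. SRRM2, a scaffold of nuclear speckles, had 339 and 227 FPKM in the Inputs and 93.7 and 101 FPKM in the RIP libraries. HNRNPF, which binds G-rich RNA, had ratios of -0.87 and -0.35. On the other side were HNRNPK, at 0.13 and 0.20, and HNRNPC, which binds uridine runs, at 0.96 and 0.76. The median over the list was -0.27, and -0.37 over the second Input table. TRA2B had no peak and ratios of -0.26 and -0.49, which turned to 0.38 and 0.32 over that table.

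Histone modifiers and chromatin remodellers had 20 of 115 members with a peak and RIP below (17.4%) and 9 with a peak and RIP above. A further 13 had no peak and RIP below, against 4 above, an imbalance that was lost over the second Input table (7 below and 8 above), whereas the counts with a peak were 19 below and 7 above there. In all, RIP was below Input in both lines in 41.7% of the list, against 20.8% of all genes. SMARCA4, the ATPase of the BAF remodeller, had ratios of -1.11 and -0.66. ARID1A, another BAF subunit, had 74.2 and 52.6 FPKM in the Inputs and 22.5 and 28.4 FPKM in the RIP libraries and no peak. SMARCB1, a core subunit, was above Input with a peak, at 0.68 and 0.47. The list's median ratio was -0.15, or -0.06 over the second Input table, and its median exonic length was 6010 bases.

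DEAD and DEAH box helicases, which remodel RNA and RNA-protein complexes, had 9 of 48 members with a peak and RIP below (18.8%) and 3 above. DHX38 and DDX23, of the spliceosome, had ratios of -0.76 and -1.86 and -0.61 and -0.24. DHX9, at 0.70 and 1.03, and DDX1, at 0.95 and 0.44, were above. Over the second Input table the list held 9 above and 9 below, and DDX23 moved to -0.04 and 0.42, so this imbalance was not kept there.

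Genes with RIP above Input but no listed peak had the lowest median Input of the 4 classes, and histone, TMEM and zinc finger ZNF genes had the largest shares of the 34 lists there (22.95%, 16.1% and 15.1%), followed by tRNA modification enzymes (12.3%) and aminoacyl-tRNA synthetases (11.4%). Histone genes had 14 of 61 members there (22.95%), against 7.46% of all genes. Of the 61, 49 (80.3%) had no peak in either line, against 32.3% of all genes. RIP was above Input in both lines in 16 of them (26.2%), against 31.6% of all genes. Replication-dependent histone mRNAs end in a stem-loop and not in a poly(A) tail. HIST2H2AC had 172 and 58.5 FPKM in the Inputs and 191 and 736 FPKM in the RIP libraries. HIST1H1B, a linker histone, had ratios of 0.55 and 2.29. HIST1H2BM had 11.1 and 10.3 FPKM in the Inputs and 47.5 and 57.3 FPKM in the RIP libraries, and HIST4H4 ratios of 1.27 and 2.04. H2AFZ, a replacement histone with a poly(A) tail, had peaks and ratios of 1.13 and 3.45. HIST2H2AA3 and HIST2H2AA4, which are copies of 1 gene and share reads, were below Input without a peak. The median over the list was -0.53 in SW480 and 2.11 in DLD-1, so its direction within a line depended on the pairing of libraries. With the Inputs exchanged, 32 histone genes without a peak were above and 9 below.

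RPL30, a ribosomal protein, had the largest ratios of the class at 5 FPKM or more, with 51.0 and 30.6 FPKM in the Inputs and 256 and 459 FPKM in the RIP libraries. LARP7, which stabilises 7SK RNA, had ratios of 1.48 and 1.41. ADORA2B, an adenosine receptor, had 8.72 and 8.77 FPKM in the Inputs and 21.3 and 23.7 FPKM in the RIP libraries. DNASE1L1, at 1.29 and 1.32, fell to 0.07 and -0.15 over the second Input table, so its direction was lost. TMEM transmembrane proteins had 22 of 137 members in this class (16.1%) and 26 with peak and binding. TMEM179B had ratios of 0.53 and 0.82, and TMEM139 0.9998 and 1.24. TMEM123, with peaks, had 39.9 and 44.1 FPKM in the Inputs and 114 and 109.8 FPKM in the RIP libraries. The list's median ratio was 0.46, and 0.47 over the second Input table.

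Genes with neither peak nor binding were led by 1 mitochondrial mRNA and by genes almost lacking from RIP. MT-ND6, the complex I subunit encoded on the mitochondrial light strand, had 6869 and 5135 FPKM in the Inputs and 137 and 60.3 FPKM in the RIP libraries. It overlaps transcripts of the other strand, and whether counting used strand is not given in the sources used here. BCAN, a brain proteoglycan, had 7.78 and 7.54 FPKM in the Inputs and 0.00974 and 0.0458 FPKM in the RIP libraries. SPDYE6 was at 0 reads in both RIP libraries, against 5.34 and 20.9 FPKM in the Inputs. At a floor of 3 reads per library this is at least 89.2-fold lower in SW480 and 297-fold lower in DLD-1. SPDYE6 belongs to a family of near-identical copies and is uncertain. IL3RA, a cytokine receptor, had 12.8 and 5.08 FPKM in the Inputs and 0.396 and 0.0233 FPKM in the RIP libraries. LTC4S had ratios of -2.13 and -2.76 and CMTM8 -1.79 and -1.77.

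Zinc finger ZNF genes, the largest family of transcription factors, had a peak in both lines in 46 of 284 genes (16.2% against 40.3% of all genes). Their median Input was 4.22 FPKM against 9.96 over all genes, and in the lowest Input quartile of all genes 454 had a peak in both lines and 1458 in neither. The part of abundance in the share was not tested. Without a peak, 43 were above (15.1% against 7.46% of all genes) and 40 below (14.1% against 7.60%). With one, 9 were above (3.17% against 15.1%) and 16 below. Over the second Input table the counts without a peak were 37 and 51. ZNF335 had 28 and 26.7 FPKM in the Inputs and 9.84 and 12.2 FPKM in the RIP libraries and no peak. ZNF768, with a peak, had ratios of -1.12 and -1.37. ZNF460 (0.34 and 0.59) and ZNF652 (0.15 and 0.33) were above Input without a peak. The median over the list was -0.03.

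The genes that the study followed fell in several classes. NAT10 mRNA itself had peaks in both lines and 21.2 and 23 FPKM in the Inputs and 20.8 and 14.3 FPKM in the RIP libraries. It was in the class with a peak and RIP below, although its SW480 ratio of -0.03 ± 0.05 was within 1 SE of 0. CTNNB1, beta-catenin, had 51.4 and 61.2 FPKM in the Inputs and 113 and 86.3 FPKM in the RIP libraries, with 2 peaks in SW480 and 6 in DLD-1, and was in the class with both. MYC (0.63 and 0.36), NAP1L4 (0.21 and 0.85) and GSK3B (0.29 and 0.04) were there too, although the DLD-1 ratio of GSK3B was about 1 SE from 0 and it turned to -0.49 over the second Input table. BCL2L1, an inhibitor of apoptosis, had no peak in either line and ratios of 0.84 and 0.10. BIRC5, CCND1, HNRNPA2B1, UBA1 and POU2F1 had peaks in both lines and opposite RIP signs. HNRNPH3 and MPP6 had peaks in DLD-1 but not in SW480. In canonical Wnt signalling as a whole, 14 of 75 genes had peak and binding (18.7%), 6 had a peak and RIP below, 4 RIP above without a peak and 5 neither. These shares (18.7%, 8.0%, 5.33% and 6.67%) were near those of all genes (15.1%, 7.58%, 7.46% and 7.60%). CSNK1G2, a casein kinase, had ratios of -0.99 and -0.56 with a peak. LRP6, the Wnt co-receptor, had 0.12 and 0.18 without one, but -0.49 and -0.23 over the second Input table and 0.37 and -0.08 with the Inputs exchanged. RNF43, a ubiquitin ligase that removes Wnt receptors, had -1.07 and -0.04 without one.

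The density of the 4-C pattern, which the rule did not use, differed between peaks of genes with RIP above and below Input. Per kilobase of peak in SW480, genes with RIP above Input held 3.68 sites (95% Poisson interval 3.53 to 3.83), genes with opposite signs 5.53 and genes with RIP below 6.30 (6.03 to 6.58). In DLD-1 the densities were 3.38 (3.28 to 3.49), 5.29 and 6.35 (6.13 to 6.58). A site was found in 46.3% of the peaks of genes above and 65.6% of those below in SW480, and in 48.5% and 67.5% in DLD-1. The genes with a site in peaks of both lines were 776 of 1563 (49.6%) above and 548 of 785 (69.8%) below. The order held with the Inputs exchanged, at 3.97 and 6.41 sites in SW480 and 3.72 and 6.26 in DLD-1. It was kept but narrower over the second Input table, with 4.40 and 5.59, and 4.12 and 5.37. The base composition of the peaks was not read here. In the RefSeq promoter windows of the same genes (250 bases before the start and 50 after) the median GC content was 64.3% for genes above and 68.3% for genes below, and the part of GC content in the density was not tested.

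**Figure D5:**
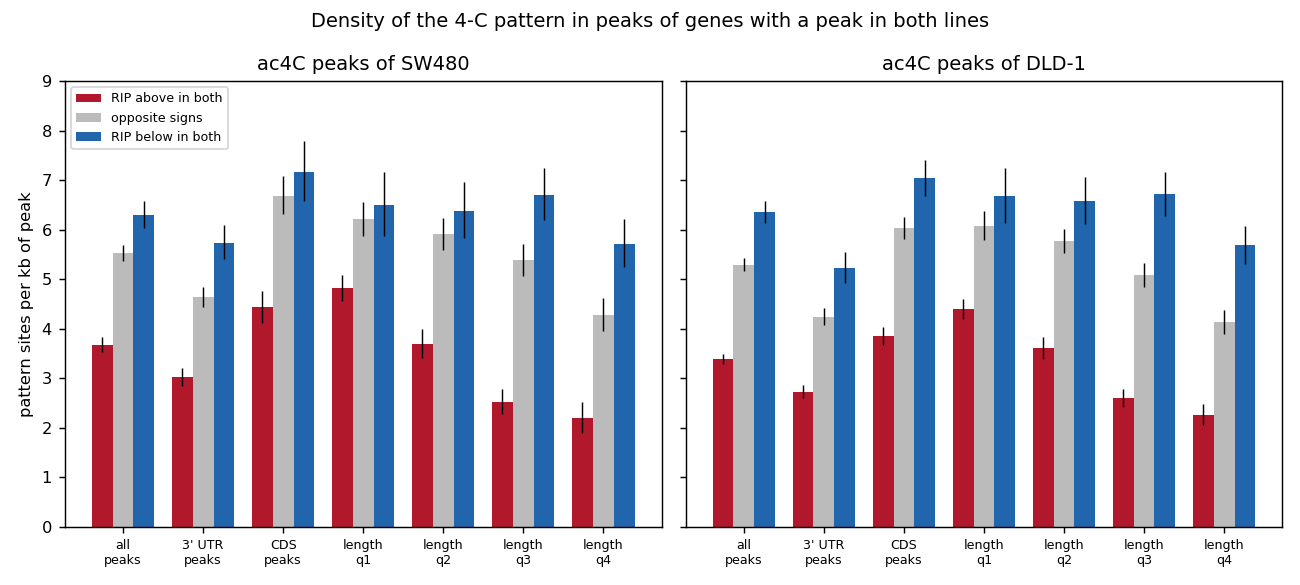
Sites of the 4-C pattern per kilobase of ac4C peak, with 95% Poisson intervals, for genes with a peak in both lines, by peak position and by quartile of the gene's exonic length (q1 shortest). Grey bars are genes with opposite RIP signs. Bars of genes with RIP below Input (blue) stand above those of genes with RIP above (red) in every group, from 4.82 against 6.49 sites in the shortest genes to 2.19 against 5.71 in the longest in SW480.

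The contrast in density was present within peaks of each position and length. In 3′ UTR peaks of SW480 the densities were 3.02 (above) and 5.74 (below), and in coding sequence 4.44 and 7.16. Peak number per gene was alike in SW480, at 1.54 above and 1.57 below, as was the share of peaks in the 3′ UTR, at 56.7% (95% Wilson interval 54.7 to 58.7) and 54.5% (51.7 to 57.2). In DLD-1 the 3′ UTR held 46.4% of peaks of genes above (44.8 to 48.1) and 39.1% of genes below (36.8 to 41.4), and coding sequence 37.1% and 43.7%. The median fold of peaks over Input was 20.8 and 19.8 in SW480, and 17.3 and 13.4 in DLD-1. A peak of SW480 overlapped 1 of DLD-1 by at least 1 base on the same strand in 82.9% of genes above and 78.1% of genes below.

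Function lists did not all follow this order. Peaks of HNRNP and SR splicing factors, the list with the largest share in the class with a peak and RIP below, held 1.63 sites per kilobase in SW480 and 2.43 in DLD-1, fewer than every other list in each line. Peaks of chromatin regulators held 6.32 and 5.67, those of zinc finger genes 6.36 and 6.999, those of the proteasome 2.40 and 2.95 and those of the respiratory chain 4.49 and 4.45. Ribosomal protein peaks, of which 6.15% in DLD-1 lay in the 3′ UTR, held 3.93 and 4.29.

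The peaks with the highest fold in both lines lay on KRT13, S100A2 and KRT7 in the class above, and on NDUFS5, SSNA1 and MYBL2 in the class below. KRT13, a keratin of stratified epithelium, had folds of 13100 and 2950 and 1.16 and 2.62 FPKM in the RIP-table Inputs. Its 2 peaks per line held 12 sites. MYBL2, a transcription factor of proliferating cells, had folds of 400 and 320 and 35.0 and 21.7 FPKM in the Inputs and 10.8 and 19.8 FPKM in the RIP libraries. Its DLD-1 ratio, -0.12 ± 0.06, was within 2 SE of 0. SSNA1, a microtubule protein, had ratios of -0.39 and -1.27.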

How the data were processed

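RNA of untreated SW480 and DLD-1 cells was sequenced as Input, NAT10 RIP and acRIP, with 1 library per group. The authors deposited FPKM values for 58302 genes in the RIP and Input libraries, and a second table with the Inputs alone, whose unit is not named and was read as FPKM. The deposited peak lists (per line and pooled) give a fold enrichment ratio over Input, a p-value, the position in the gene and counts of motif sites, and coordinates on GRCh38 that count starts from 0 and were moved by 1 base. The submitters' processing notes name cutadapt 2.5 and HISAT2 2.1.0, and list the mouse build GRCm38 beside GRCh38. The study names IgG as the control of RIP, but the RIP columns analysed here were set over Input, with no IgG background. The counting tool, its use of strand and the peak caller are not given in the sources used here. Columns of the authors' own RIP over Input ratios and their mean were not used.

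Ratios were log2((RIP FPKM + 1)/(Input FPKM + 1)), which understates the change of low genes. Whole reads and exonic lengths were solved from the FPKM steps (99.3% of 23515 genes had a length within 0.02 bases plus 3e-06 of the length of a whole number) and gave the counting SE. The step was checked on data made with known reads. With 1 library per group no test was run. Shares have Wilson and site densities exact Poisson intervals, for counting error only. Python 3.11.15 with pandas 2.3.3, NumPy 2.4.6 and SciPy 1.17.1 was used.

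Named genes were the 6 per class with the largest smaller-of-both-lines ratio at 5 FPKM or more in both Inputs, up to 2 per class and function list with the highest mean Input, 14 genes of the study, the 3 per peak class whose lower fold of the lines was highest, and those nearest the threshold. The members and lists were chosen with earlier results of these data known. Symbols were matched to RefSeq directly, through gene IDs or through synonyms (83.3% of genes). Alternatives were 2 other pseudocounts, 2 other Input filters, the Input of the other label, the second Input table, centring, a margin of 0.5, 3 other peak definitions and each line alone.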

Additional observations from a re-analysis of the deposited data

Results flagged for a closer look

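Some followed genes had opposite signs of RIP over Input in the lines. The difference was not tested, since each line had 1 library per group, and it was taken over the Input of the same label. Each RIP library was closer to the Input of the other label, and the part of this in the difference was not tested. The log2 ratio, SW480 minus DLD-1, was below 0 for KIF23 (-1.48), for the survivin gene BIRC5 (-1.34), for POU2F1 (-0.72) and for HNRNPA2B1 (-0.93). It was above 0 for CCND1 (0.48) and UBA1 (0.55).

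Function lists whose median ratios had opposite signs in the lines, also not tested, differed as follows, again as SW480 minus DLD-1. The median was lower in SW480 for histone genes (-2.64), mitosis and cytokinesis (-1.30), cytosolic ribosomal proteins (-1.09), DNA replication (-0.96), cadherins, catenins and junction proteins (-0.92), HNRNP and SR splicing factors (-0.54), core spliceosome proteins (-0.31) and canonical Wnt signalling (-0.095). It was higher in SW480 for cholesterol synthesis and uptake (0.89), aminoacyl-tRNA synthetases (0.51), glycolysis (0.49) and zinc finger ZNF genes (0.050). With the Inputs exchanged between lines, most of these lists had medians of the same sign. The medians were then 0.41 and 0.97 for histone genes, 0.37 and 0.30 for mitosis and cytokinesis, and 0.29 and 0.04 for DNA replication. For HNRNP and SR splicing factors they were -0.21 and -0.25, and for cholesterol synthesis and uptake 0.16 and 0.28. Signs stayed opposite, close to 0, for junction proteins (-0.01 and 0.03) and core spliceosome proteins (0.07 and -0.005).

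The list of peaks called on the pooled acRIP libraries was not used for the classes. Of the genes with no peak in either line's list, 34 of 772 with RIP above Input and 18 of 787 with RIP below had a peak in the pooled list.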

How the results depend on the processing

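No paired analysis was possible because the result comes from no test and each group has 1 library. In the 13 alternative settings, 84 of 156 class values stayed within the main value's counting interval or within 1.5 times the main count, and 72 moved. For all of these the cause was not tested, beyond what each setting changes by construction. Class counts, shares and densities could not move under the 2 other pseudocounts, since the sign of the ratio does not depend on the pseudocount. The 2 medians could not move with the Inputs exchanged or with a margin of 0.5. Centring shifted both medians by the same amount, so their order was fixed in these settings. Values that could not move are among the 84 that stayed. Genes with a peak in both lines kept the higher share above Input and the higher median than genes without one in every setting, and peaks of genes below kept the higher site density.

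A pseudocount of 5 gave a median of 0.14 with a peak. With any Input above 0, genes without a peak had 1383 below, 19.6% above and a median of -0.060. With an Input of at least 5 they had 303 above, 405 below, 20.3% above and a median of -0.063, and the median with a peak was 0.15. With the Inputs exchanged between lines there were 1287 genes below with a peak, and 1265 above and 1351 below without, with 52.8% and 37.8% above and densities for genes above of 3.97 (SW480) and 3.72 (DLD-1). Over the second Input table the shares above were 39.1% and 24.9%, the medians 0.22 and 0.049, and the densities 4.40 and 5.59 in SW480 and 4.12 and 5.37 in DLD-1 (above, then below). Centring gave 31.7% and 18.3% above and medians of 0.057 and -0.13.

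A margin of 0.5 left 685, 191, 251 and 243 genes (peak above, peak below, no peak above, no peak below), 16.4% and 7.50% above, and densities of 3.44 and 6.96, and 3.23 and 6.75. Peaks with a p under the list's median gave 906, 413, 1633 and 1309 genes, 27.6% above and a median of 0.046 without a peak, and densities for genes above of 3.999 and 3.70. The pooled list gave 2400 and 1255 genes with a peak and 3.25 sites in DLD-1 for genes above. SW480 alone gave 3169, 2125, 2832 and 2224 genes, 59.9% and 56.0% above, medians of 0.21 and 0.14, and densities of 4.48 and 5.76, and 4.02 and 5.69. DLD-1 alone gave 3461, 2418, 2009 and 2462 genes, 58.9% and 44.9% above, a median of -0.12 without a peak, and densities of 4.24 and 6.01, and 3.89 and 5.62.

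For the 24 genes named by ratio, 133 values stayed within 1 counting SE, 106 moved and 1 reversed, DNASE1L1 at -0.15 over the second Input table. Counts for 12 function lists stayed within 1.5 times in 413 cases and moved in 211, often at counts of a few genes. Those under the 2 other pseudocounts are among the cases that stayed, by construction. Depth limits low genes most, and the acRIP libraries' depth, and so the sensitivity of the peak lists, is unknown.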
